A study of Homo sapiens with 8 samples.

Results

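The receptors of the EGFR family and the ligands that bind them were followed across HCT-8 colon cancer cells, their 5-FU-resistant counterpart and cells grown in CM. The set holds 10 genes that were listed by symbol and matched to Ensembl identifiers, 10 of the 64253 genes in the count tables: the receptors EGFR, ERBB2 and ERBB3, the ligands AREG, EREG, TGFA, HBEGF and BTC, and DUSP6 and SPRY4, which are feedback genes of ERK signaling. All 10 were among the 20305 genes that passed the filter on low counts. The rule that lists them uses no measured value, but the list was drawn up with earlier results of these data known.

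RNA-seq of poly(A)-selected mRNA was measured in 8 libraries, in 4 groups of 2 replicates. HCT-8 is an established human colon cancer line that is sensitive to the pyrimidine analogue 5-FU, a chemotherapy drug, and HCT-8/FU is the resistant line paired with it, both in unconditioned medium. CM of HCT-8 stands for HCT-8 cells cultured in medium taken from HCT-8 cells after 48 h, and CM of HCT-8/FU for HCT-8 cells cultured in medium taken from HCT-8/FU cells after 48 h. All groups were kept in medium with fetal bovine serum, which the sample descriptions name as Ham's F12 and the methods of the study as RPMI. How long the cells stayed in CM, whether 5-FU was present at harvest, how the resistant line was derived and whether replicates came from separate cultures are not given in the sources used here, so p-values measure the spread between these libraries, which may be technical. HCT-8/FU is 1 resistant line, so resistance and any other property of that line cannot be told apart.

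EGFR, ERBB2, ERBB3 and ERBB4 are receptor tyrosine kinases that work as pairs. Ligands such as amphiregulin, TGF-alpha, HB-EGF, epiregulin and betacellulin are made as membrane-anchored precursors and are released by metalloproteases, chiefly ADAM17 and ADAM10. Bound receptors activate the RAS-ERK and PI3K pathways, ERK in turn induces its own inhibitors, among them DUSP6 and the Sprouty proteins, and in the colon epithelium the system is known for driving proliferation and repair. ERBB2 has no known ligand, and ERBB3 has little kinase activity of its own and signals through its partner.

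Counts on genes ranged from 5804124 to 34881349 per library. In 3 libraries, HCT-8 replicate 1, HCT-8/FU replicate 2 and CM of HCT-8 replicate 1, between 19.96% and 29.6% of the records were not aligned, against 3.58% to 4.43% in the other 5. The libraries also differed in the way levels followed the GC content of the gene: over 19857 genes, the Spearman correlation of GC content with how far a library's level departed from the average library was -0.488 and -0.452 in HCT-8/FU, 0.375 and 0.534 with CM of HCT-8, and between -0.0652 and 0.215 in the other 4 libraries. Of 10 colon epithelial markers, 9 were above 1 CPM in every library, and CEACAM5 was the exception at 0.0887 to 0.836 CPM. The summed level of 4 immune markers was at most 1.96 CPM, with PTPRC and CD3E at 0 counts throughout, that of 4 endothelial markers at most 2.45 CPM, and that of 7 fibroblast markers at most 22.4 CPM, with COL1A2 at 0 counts. The immune marker CD68 shares 81.6% of its exonic bases with ENSG00000264772 on the same strand, so its counts may be too low. In bulk RNA, fewer cells that express a gene and less RNA of it per cell cannot be told apart.

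Levels are given as CPM, the counts of a gene scaled to library size after TMM normalization, and as CPM per kb of exons where genes are compared. The length is that of all annotated exons of a gene together, which may exceed that of the transcripts present. The study counted on an earlier annotation than the one used for lengths, so exons added since could add length without counts. In CPM per kb, DUSP6 was the highest of the 10 genes in HCT-8, with a mean of 134, followed by AREG at 93.2, TGFA at 22.4, EGFR at 20.5 and SPRY4 at 17.3. ERBB2, HBEGF and ERBB3 lay close together at 14.02, 13.5 and 13.3 CPM per kb, and EREG and BTC were lowest at 3.69 and 1.94.

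**Figure D1:**
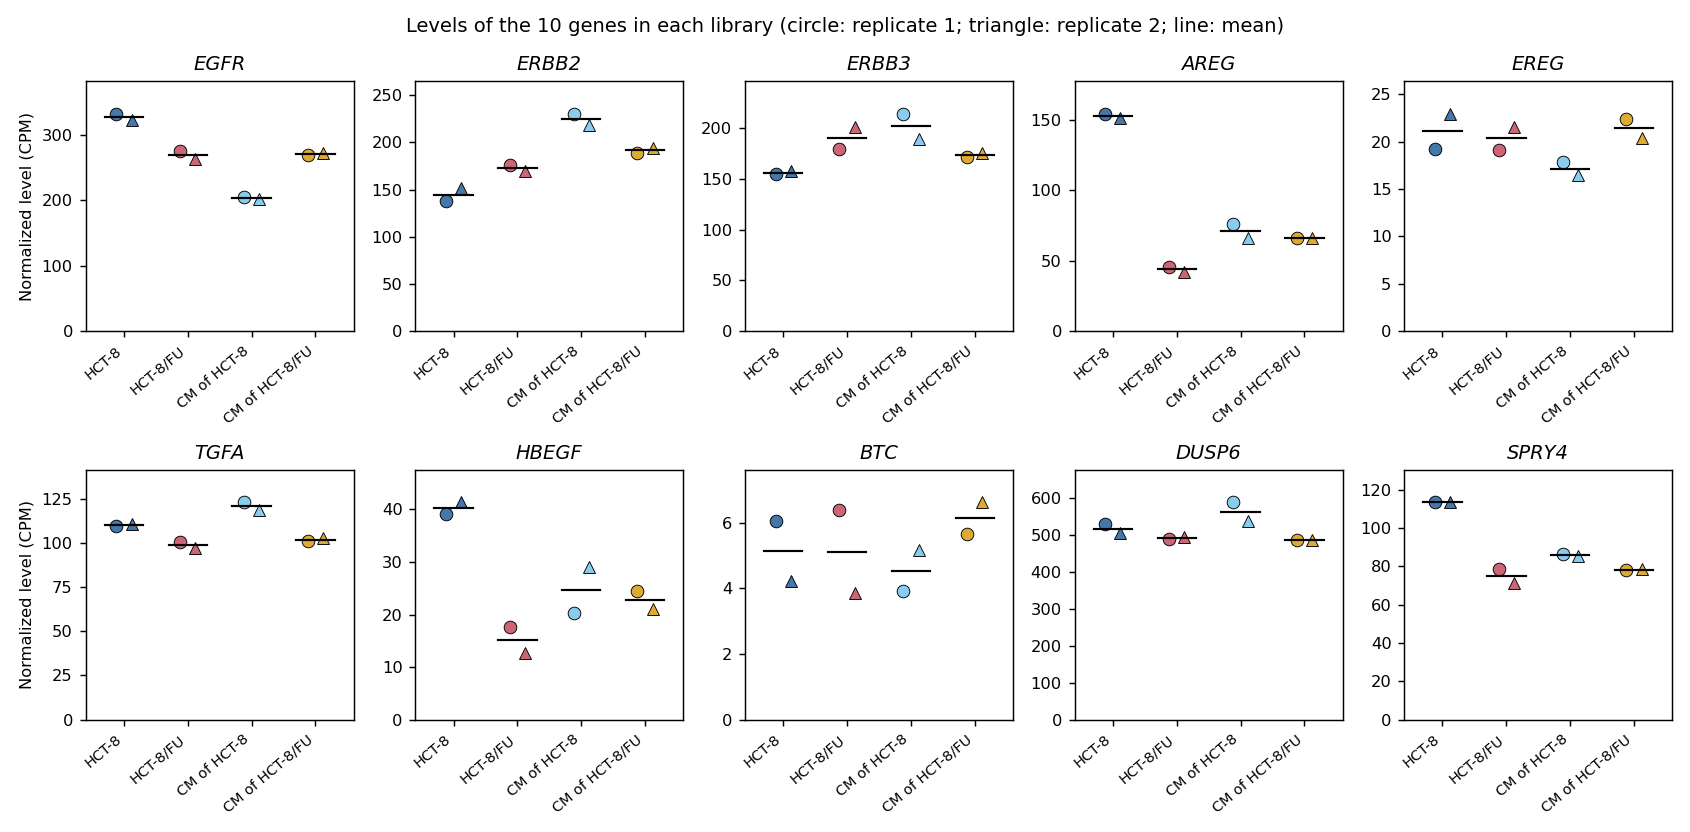
Normalized level of each of the 10 genes in CPM (vertical axes from 0) in the 4 groups, with a circle for replicate 1, a triangle for replicate 2 and a line for their mean. AREG, HBEGF and SPRY4 were highest in both HCT-8 libraries, ERBB2 was lowest there, and each group of BTC overlapped with its neighbors in level.

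EGFR (ENSG00000146648, chr7:55019017-55211628 of GRCh38, plus strand) is the receptor of AREG and TGFA. Its level was 332 and 322 CPM in HCT-8, 275 and 262 in HCT-8/FU cells, 204 and 202 with CM of HCT-8, and 269 and 272 with CM of HCT-8/FU. HCT-8 lay above all other groups and CM of HCT-8 below them, whereas HCT-8/FU overlapped with CM of HCT-8/FU. The highest group mean was 1.61 times the lowest.

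ERBB2 (ENSG00000141736, chr17:39687914-39730426, plus strand), the preferred partner of the other receptors, was lowest in HCT-8 and highest with CM of HCT-8, where EGFR was highest and lowest. It was measured at 138 and 151 CPM in HCT-8, 176 and 169.8 in HCT-8/FU cells, 230.5 and 219 with CM of HCT-8, and 189 and 194 with CM of HCT-8/FU. No pair of groups overlapped, and the group means spanned 1.55-fold. Per kb of exons, EGFR stood at 1.56 and 1.38 times ERBB2 in HCT-8, at 1.01 and 1.00 times in HCT-8/FU, at 0.574 and 0.599 times with CM of HCT-8, and at 0.922 and 0.906 times with CM of HCT-8/FU. Per kb, EGFR mRNA was thus above ERBB2 mRNA in HCT-8 and below it in both groups kept in CM. In CPM, without division by length, EGFR was below ERBB2 only with CM of HCT-8. The sum of the receptors stayed between 47.4 and 53.4 CPM per kb in all 8 libraries.

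ERBB3 (ENSG00000065361, chr12:56076799-56103505, plus strand), a receptor for neuregulins, was read at 154 and 158 CPM in HCT-8, 179 and 201 in HCT-8/FU cells, 214 and 189 with CM of HCT-8, and 171 and 175 with CM of HCT-8/FU. The HCT-8 libraries were the lowest, HCT-8/FU overlapped with CM of HCT-8, and the means spanned 1.29-fold. ERBB4, the remaining receptor, had 0 counts in all 8 libraries, where a count of 0 allows a level of at most 0.0860 CPM in the deepest and 0.517 CPM in the shallowest library (3 counts, without TMM, counting error only). Exons of EGFR-AS1 lie opposite 1.17% of the exonic bases of EGFR, and exons of MIEN1 and PGAP3 opposite 6.93% of those of ERBB2. Since the sources used here give no strand setting for the counting, reads of such overlapping genes cannot be told apart.

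AREG (ENSG00000109321, chr4:74445136-74455005, plus strand), which encodes amphiregulin, was the highest ligand mRNA per kb of exons in every library. In CPM, without division by length, TGFA was above AREG in every group but HCT-8. The exonic length was 1642 bases for AREG and 4917 for TGFA. The level of AREG was 155 and 152 CPM in HCT-8, 45.4 and 42.3 in HCT-8/FU cells, 76.3 and 66.1 with CM of HCT-8, and 65.9 and 66.2 with CM of HCT-8/FU. Both HCT-8 libraries lay far above the rest and both HCT-8/FU libraries at the bottom, with the CM groups overlapping each other in between. The group means were 153 ± 2.07 CPM (SD, n = 2) in HCT-8, 43.9 ± 2.22 in HCT-8/FU, 71.2 ± 7.24 with CM of HCT-8 and 66.1 ± 0.220 with CM of HCT-8/FU, and the highest was 3.49 times the lowest.

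HBEGF (ENSG00000113070, chr5:140332843-140346603, minus strand), which encodes a heparin-binding ligand of EGFR and ERBB4, followed the same order of groups at a lower level. It was counted at 39.1 and 41.4 CPM in HCT-8, 17.7 and 12.7 in HCT-8/FU cells, 20.3 and 29.0 with CM of HCT-8, and 24.5 and 21.0 with CM of HCT-8/FU. HCT-8 was highest and HCT-8/FU lowest without overlap, and the CM groups overlapped, with a 2.65-fold span of the means.

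TGFA (ENSG00000163235, chr2:70447284-70554193, minus strand), which encodes TGF-alpha, moved little. The libraries held 109.8 and 111 CPM of it in HCT-8, 101 and 97.3 in HCT-8/FU cells, 123 and 119 with CM of HCT-8, and 101 and 103 with CM of HCT-8/FU, so that the means spanned only 1.22-fold although no groups overlapped. EREG (ENSG00000124882, chr4:74365145-74388749, plus strand), which encodes epiregulin, was at 19.2 and 23.0 CPM in HCT-8, 19.1 and 21.6 in HCT-8/FU cells, 17.8 and 16.5 with CM of HCT-8, and 22.5 and 20.4 with CM of HCT-8/FU. CM of HCT-8 was the lowest group of EREG, and the other 3 overlapped.

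BTC (ENSG00000174808, chr4:74744759-74794523, minus strand), which encodes betacellulin, was at 6.06 and 4.23 CPM in HCT-8, 6.38 and 3.84 in HCT-8/FU cells, 3.91 and 5.16 with CM of HCT-8, and 5.65 and 6.62 with CM of HCT-8/FU. Neighbors in its order of groups all overlapped. In the shallowest library its value rested on 23 counts, against 253 for AREG and 76 for HBEGF.

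Of the 6 remaining ligands, EGF itself was measured at 20.8 to 32.5 CPM and was not called in any comparison. NRG3 had 0 counts in all libraries, EPGN at most 1 count and NRG1 at most 5, and NRG2 lay between 0.790 and 1.49 CPM. NRG4, a neuregulin that binds ERBB4, was scarce at 1.185 and 1.42 CPM in HCT-8, 4.98 and 4.18 in HCT-8/FU cells, 0.575 and 0.904 with CM of HCT-8, and 2.66 and 2.30 with CM of HCT-8/FU. HCT-8/FU was highest and CM of HCT-8 lowest in NRG4, and no groups overlapped. Exons of FBXO22 lie opposite 38.2% of the exonic bases of NRG4.

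**Figure D2:**
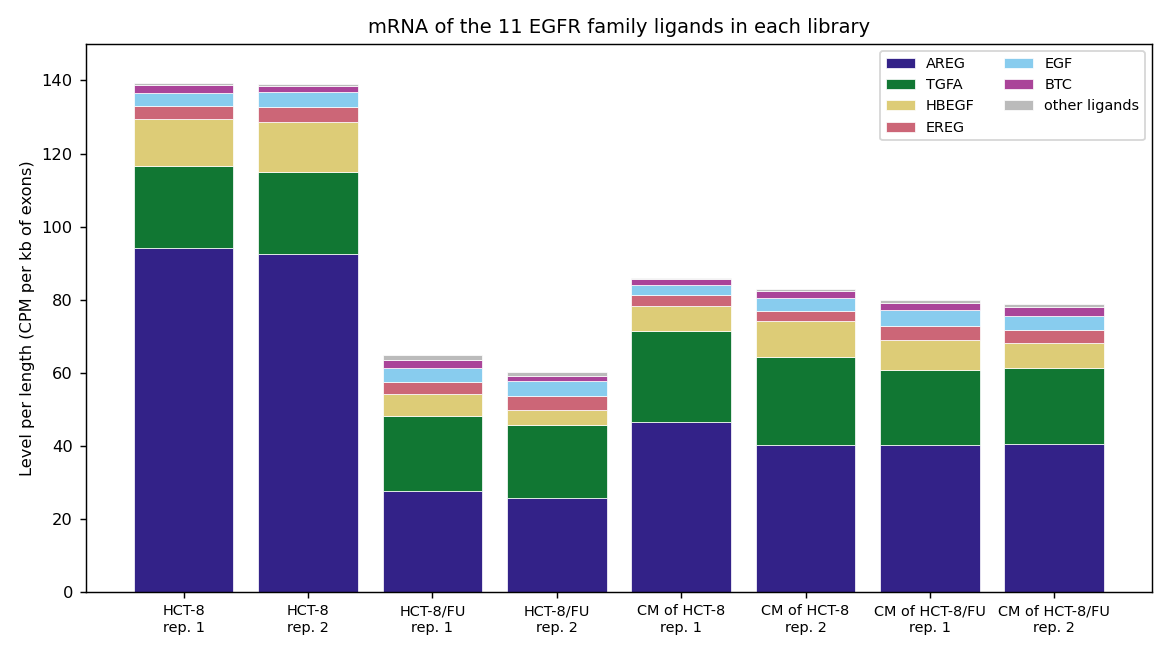
Stacked levels of the mRNAs of 11 EGFR family ligands in CPM per kb of exons (vertical axis from 0) in each of the 8 libraries. AREG, at the base, made up 67.6% and 66.4% of the bar in HCT-8 and 42.7% and 42.8% in HCT-8/FU cells, and the TGFA segment changed little.

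The summed ligand mRNA was 139.3 and 139.1 CPM per kb in HCT-8, 64.8 and 60.2 in HCT-8/FU cells, 85.9 and 82.8 with CM of HCT-8, and 79.9 and 78.7 with CM of HCT-8/FU. AREG took 67.6% and 66.4% of this sum in HCT-8, 42.7% and 42.8% in HCT-8/FU cells, 54.1% and 48.6% with CM of HCT-8, and 50.2% and 51.3% with CM of HCT-8/FU. The share of TGFA was 16.0% and 16.2% in HCT-8 and 31.6% and 32.9% in HCT-8/FU cells. Per kb, AREG was 4.22 and 4.10 times TGFA in HCT-8 and 1.35 and 1.302 times TGFA in HCT-8/FU cells.

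AREG, EREG and BTC lie within 486 kb of chromosome 4 together with EPGN, on chr4:74308470-74794523. The windows of 250 bases before the RefSeq starts of AREG, HBEGF and EREG are shown. Among the ligands of the set, AREG and HBEGF had the widest spans of group means, 3.49-fold and 2.65-fold. EREG, a neighbor of AREG, spanned 1.25-fold. The windows are given 5′ to 3′ on the strand of the gene from RefSeq on GRCh38.p14, at chr4:74444886-74445135 (plus), chr5:140346604-140346853 (minus) and chr4:74364895-74365144 (plus). Capitals mark the letters TGACGTCA of a cAMP response element (CRE).
AREG: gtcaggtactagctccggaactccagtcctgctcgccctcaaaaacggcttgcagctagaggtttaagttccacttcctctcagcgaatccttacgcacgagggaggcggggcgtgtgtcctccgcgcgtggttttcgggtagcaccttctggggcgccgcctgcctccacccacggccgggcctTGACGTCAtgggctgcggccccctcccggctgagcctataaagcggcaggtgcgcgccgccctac
HBEGF: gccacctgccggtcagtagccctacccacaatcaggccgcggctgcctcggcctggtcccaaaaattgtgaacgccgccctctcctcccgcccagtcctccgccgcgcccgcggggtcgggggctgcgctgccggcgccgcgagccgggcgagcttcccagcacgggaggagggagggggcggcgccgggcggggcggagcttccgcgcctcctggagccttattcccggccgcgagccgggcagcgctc
EREG: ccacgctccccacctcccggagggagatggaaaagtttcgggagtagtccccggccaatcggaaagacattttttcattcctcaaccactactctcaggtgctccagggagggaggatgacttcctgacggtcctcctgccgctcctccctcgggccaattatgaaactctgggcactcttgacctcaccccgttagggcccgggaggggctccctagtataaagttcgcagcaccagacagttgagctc

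These windows and those of all other RefSeq promoters were searched on both strands for TGACGTCA (CRE), its first 5 letters TGACG, which any CRE also holds, TGANTCA (AP-1), CCGGAAGT (ETS), GCGTGGGCG (EGR) and GGGGCGGGG (GC box). The AREG window held the CRE letters at -65 to -58, counted from the start site, as did 1.65% of 35116 promoter windows. The EREG window held only TGACG, at -125 to -121, which 21.2% of the windows contain, and the HBEGF window held none of the 6. The other motifs were found in 6.57% (AP-1), 3.42% (ETS), 0.72% (EGR) and 15.1% (GC box) of all windows. Of the 10 genes, 7 had 1 entry in the RefSeq table, EGFR and TGFA had more than 1, and ERBB3 had none.

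DUSP6 (ENSG00000139318, chr12:89347235-89352501, minus strand) encodes the phosphatase that removes phosphate from ERK. It was abundant and level, at 529 and 506 CPM in HCT-8, 489.6 and 495 in HCT-8/FU cells, 589 and 538 with CM of HCT-8, and 488 and 486 with CM of HCT-8/FU. The groups did not overlap, but their means spanned only 1.16-fold, and 28.6% of its exonic bases lie opposite exons of ENSG00000274021. SPRY4 (ENSG00000187678, chr5:142310427-142326455, minus strand), a Sprouty inhibitor of RAS-ERK signaling, was at 113 CPM in both HCT-8 libraries, 78.9 and 71.5 in HCT-8/FU, 86.4 and 85.6 with CM of HCT-8, and 78.2 and 78.6 with CM of HCT-8/FU. HCT-8 was highest without overlap, HCT-8/FU overlapped with CM of HCT-8/FU at the bottom, and the means spanned 1.51-fold.

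The first comparison, HCT-8/FU relative to HCT-8, asks how the resistant line differs from the sensitive one. Amphiregulin and HB-EGF mRNA and the feedback gene SPRY4 were lower in HCT-8/FU, whereas the receptors differed by less than the fold threshold. A gene was called differentially expressed (DE) where its p in the edgeR quasi-likelihood test, Benjamini-Hochberg adjusted over 20305 genes, was at most 0.05 and the absolute log2 fold change at least 0.58, which is 1.5-fold. Of the 10 genes, 3 were DE and lower and 0 were DE and higher, beside 8.12% of all tested genes lower and 13.2% higher. The median log2 fold change of the 10 was -0.13, beside 0.01 over all tested genes.

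AREG fell by 1.79 on the log2 scale in HCT-8/FU (SE 0.09, adjusted p = 4.88e-09 in the edgeR quasi-likelihood test, Benjamini-Hochberg adjusted), to 0.289 of its HCT-8 level. HBEGF fell by 1.33 (SE 0.17, adjusted p = 1.71e-05 in the same edgeR test), to 0.396. SPRY4 fell by 0.58 (SE 0.08, adjusted p = 3.87e-05 in the same edgeR test), just past the fold threshold, and it was short of that threshold under 9 of 21 alternative settings, with values up to -0.48, among them without HCT-8/FU replicate 2 (-0.53). AREG and HBEGF remained DE and lower under all 21, with AREG between -2.09 and -1.70 and HBEGF between -1.68 and -1.198.

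EGFR was lower by 0.28 (-0.28, SE 0.07, adjusted p = 0.00377 in the edgeR quasi-likelihood test), ERBB2 higher by 0.26 (SE 0.08, adjusted p = 0.0145 in that edgeR test) and ERBB3 higher by 0.28 (SE 0.08, adjusted p = 0.0160 in that edgeR test). All of them passed the FDR and missed the fold threshold, as 36.7% of all tested genes passed the FDR. TGFA was at -0.15 (95% confidence interval -0.31 to 0.01) and BTC at 0.17 (-0.42 to 0.76), and neither passed the FDR. DUSP6 was at -0.07 (-0.22 to 0.08), and at 0.02 with CM of HCT-8 replicate 2 as the reference of the normalization. EREG was at -0.10 (-0.39 to 0.19), but after each library was corrected for GC content and gene length it was DE and lower, at -0.72 (adjusted p = 0.00173 in the edgeR quasi-likelihood test, Benjamini-Hochberg adjusted). EREG has the lowest GC content of the 10 genes, 36.8%, and levels in the HCT-8/FU libraries fell with GC content.

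**Figure D3:**
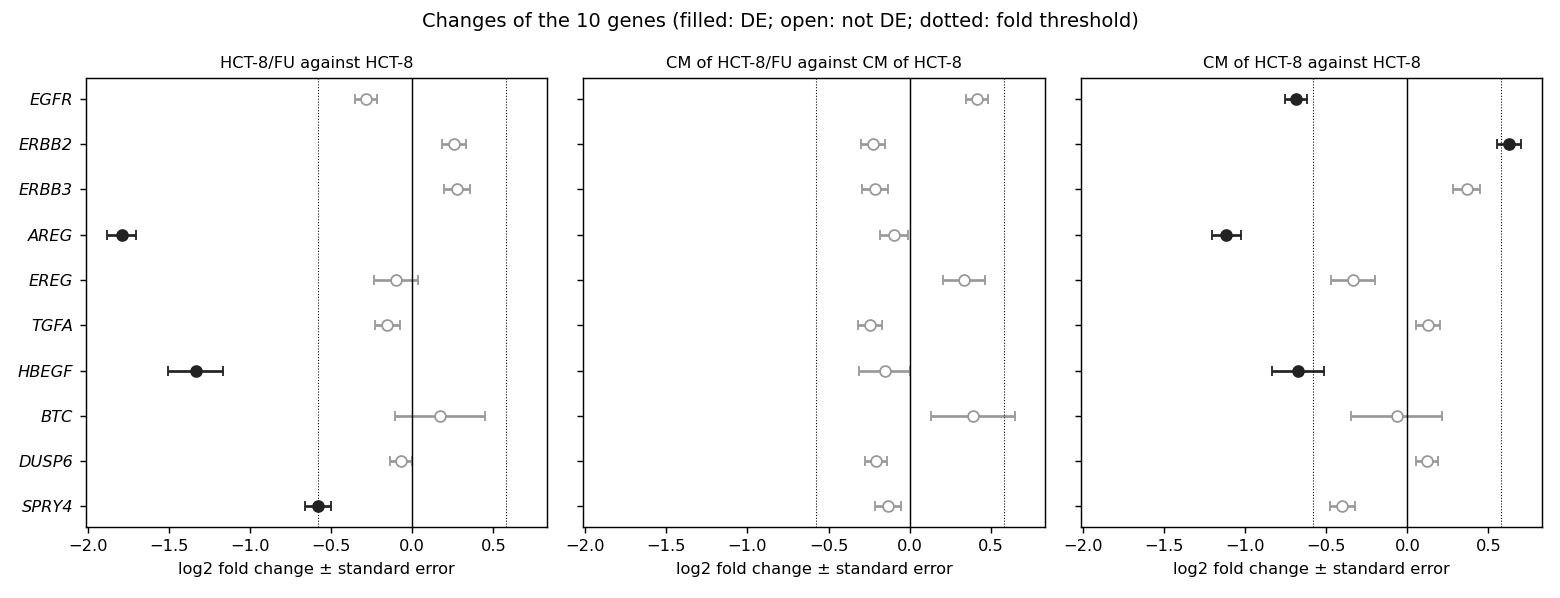
log2 fold changes of the 10 genes with their standard errors (horizontal axes) in 3 comparisons, where filled points are DE, open points are not, and dotted lines mark the fold threshold of 0.58. AREG lay at -1.79 in HCT-8/FU relative to HCT-8 and at -0.10 for CM of HCT-8/FU relative to CM of HCT-8, and EGFR and ERBB2 passed the threshold in opposite directions in CM of HCT-8 relative to HCT-8.

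The second comparison, CM of HCT-8/FU relative to CM of HCT-8, asks what medium from resistant cells does to HCT-8 cells beyond medium from their own kind. No gene of the set was DE in the edgeR quasi-likelihood test, beside 9.25% of all tested genes. An unadjusted p below 0.05 was reached by 6 of the 10, the FDR alone by 4, and DESeq2 also called 0, fitted to all 4 groups or to the pair alone. The median of the 10 was -0.14 and that of all tested genes -0.06.

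EGFR was higher in CM of HCT-8/FU by 0.41 (SE 0.07, adjusted p = 4.25e-04 in the edgeR quasi-likelihood test, Benjamini-Hochberg adjusted). TGFA was at -0.25 (adjusted p = 0.0265 in that edgeR test), ERBB2 at -0.23 (adjusted p = 0.0409 in that edgeR test) and DUSP6 at -0.21 (adjusted p = 0.0415 in that edgeR test). These 4 passed the FDR, as did 19.7% of all tested genes, and were short of the fold threshold. With the correction for GC content and length none of the 4 passed the FDR, and EGFR was then at 0.27 (adjusted p = 0.0574 in the edgeR test).

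AREG differed by -0.10 between the CM groups, with a 95% confidence interval of -0.28 to 0.09, and HBEGF by -0.16, with an interval of -0.49 to 0.18. SPRY4 was at -0.13 (-0.30 to 0.03), ERBB3 at -0.22 (-0.39 to -0.04), EREG at 0.33 (0.05 to 0.61) and BTC at 0.39 (-0.16 to 0.95), and none of these passed the FDR. Without CM of HCT-8 replicate 1 the value of AREG was 0.0010, and that of HBEGF was 0.17 without CM of HCT-8 replicate 2.

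Whether these changes differed between the comparisons, which share no library, was tested as a contrast in the same fit. The change in HCT-8/FU was more negative than that in CM of HCT-8/FU for AREG, HBEGF and EGFR. Of the 10 genes, 3 passed both thresholds with a negative difference, beside 4.14% of all tested genes, and 0 with a positive one, beside 3.55%, and 6 passed the FDR alone, as did 11.6%. The difference was -1.69 for AREG (SE 0.125, adjusted p = 1.14e-06 in the edgeR quasi-likelihood test, Benjamini-Hochberg adjusted), -1.18 for HBEGF (SE 0.231, adjusted p = 0.00360 in that edgeR test) and -0.70 for EGFR (SE 0.0951, adjusted p = 0.000229 in that edgeR test). For EGFR the changes pointed in opposite directions, -0.28 in HCT-8/FU relative to HCT-8 and 0.41 with CM of HCT-8/FU relative to CM of HCT-8. Relative to HCT-8, EGFR with CM of HCT-8/FU was at -0.27.

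HCT-8 cells in CM were also compared with HCT-8 cells in unconditioned medium. Conditioning and any other difference in handling between these groups cannot be told apart. EGFR, AREG and HBEGF fell and ERBB2 rose in CM of HCT-8. Of the 10 genes, 3 were DE and lower, beside 4.29% of all tested genes, and 1 was DE and higher, beside 3.86%. This comparison shares the HCT-8 libraries with HCT-8/FU relative to HCT-8.

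AREG fell by 1.11 in CM of HCT-8 (SE 0.09, adjusted p = 1.61e-06 in the edgeR quasi-likelihood test, Benjamini-Hochberg adjusted), to 0.462 of its HCT-8 level. EGFR fell by 0.69 (SE 0.07, adjusted p = 9.75e-06 in that edgeR test), HBEGF fell by 0.67 (SE 0.16, adjusted p = 0.00809 in that edgeR test), and ERBB2 rose by 0.63 (SE 0.07, adjusted p = 5.35e-05 in that edgeR test). SPRY4 was at -0.40 and ERBB3 at 0.36, past the FDR, as were 19.4% of all tested genes, but short of the fold threshold, and TGFA (0.13), DUSP6 (0.12), EREG (-0.34) and BTC (-0.07) did not pass the FDR.

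The calls of AREG and EGFR in CM of HCT-8 held under all 21 alternatives. Without the 3 libraries with many unaligned records, HBEGF was at -0.51 and ERBB2 at 0.53, short of the fold threshold. That fit is among the 21. It left CM of HCT-8/FU as the only group with replicates, so its spread between replicates came from that pair alone. HBEGF also lost its call without CM of HCT-8 replicate 1 (-0.48) and when HCT-8 replicate 2 was left out (-0.70, adjusted p = 0.0576 in the edgeR quasi-likelihood test), and ERBB2 without HCT-8 replicate 1 (0.56).

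In CM of HCT-8/FU relative to HCT-8, AREG fell by 1.21 (SE 0.08, adjusted p = 4.23e-07 in the edgeR quasi-likelihood test, Benjamini-Hochberg adjusted) and HBEGF fell by 0.83 (SE 0.15, adjusted p = 0.00114 in that edgeR test). Those 2 of the 10 genes were DE, both lower, beside 3.28% of all tested genes lower and 7.16% higher. EGFR was at -0.27, ERBB2 at 0.40 and SPRY4 at -0.53, all past the FDR, as were 24.7% of all tested genes, and short of the fold threshold. This comparison, too, uses the HCT-8 libraries.

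The wider pathway was read from lists of its parts, whose counts stand beside 13.2% of all tested genes called higher and 8.12% called lower in HCT-8/FU, and 7.97% and 1.28% between the CM groups. Among the 8 of 11 ligands that were tested, NRG4 was DE and higher in HCT-8/FU, at 1.79 (SE 0.34, adjusted p = 6.04e-04 in the edgeR quasi-likelihood test, Benjamini-Hochberg adjusted). It was also DE and higher for CM of HCT-8/FU relative to CM of HCT-8, at 1.63 (SE 0.36, adjusted p = 0.00461 in that edgeR test). These values rest on 5 to 150 counts per library. With 38.2% of its exonic bases opposite exons of FBXO22, reads of NRG4 and FBXO22 cannot be told apart there. That second call did not hold with CM of HCT-8/FU replicate 1 left out (1.54, adjusted p = 0.0543 in the edgeR quasi-likelihood test).

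The proteases that release the ligands went opposite ways. ADAM17, the main sheddase of amphiregulin and HB-EGF, was at 131 and 133 CPM in HCT-8, 72.9 and 70.7 in HCT-8/FU cells, 78.6 and 78.2 with CM of HCT-8, and 80.8 and 77.7 with CM of HCT-8/FU. It fell by 0.88 in HCT-8/FU, and by 0.75 with CM of HCT-8, where the GC correction left it at -0.51, and the HCT-8 libraries stood above all others. ADAM10, the sheddase of betacellulin and EGF, was at 107 and 103 CPM in HCT-8, 251 and 237 in HCT-8/FU cells, 105 and 81.6 with CM of HCT-8, and 185 and 183 with CM of HCT-8/FU.

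ADAM10 rose by 1.22 in HCT-8/FU, and by 0.99 with CM of HCT-8/FU relative to CM of HCT-8, and was among the genes the study chose for RT-qPCR. With the correction for GC content and length it was at 0.52 and 0.27, short of the fold threshold, and its GC content is 37.1%. Of the 5 genes of this list, ADAM10 was the 1 called higher and ADAM17 the 1 called lower in HCT-8/FU, and ADAM10 the 1 called in the CM groups.

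Among 16 adaptors and members of the RAS-ERK cascade, 6 rose and 2 fell in HCT-8/FU, beside 13.2% and 8.12% of all tested genes, with a list median of -0.08. The adaptor GAB1 rose by 1.38 and the RAS activator SOS1 by 1.21, and the adaptor SHC1 fell by 0.94. In CM of HCT-8/FU relative to CM of HCT-8, 5 were higher and 0 lower, beside 7.97% and 1.28%, with SOS1 at 1.23, GAB1 at 1.10 and SOS2 at 0.74. SOS2 lost its call when CM of HCT-8 replicate 2 was left out (0.43), as it did when CM of HCT-8/FU replicate 1 was (0.58, adjusted p = 0.0612 in the edgeR quasi-likelihood test). Of 6 tested genes of the PI3K and PLC branch, 2 were higher and 0 lower in each of these comparisons: PIK3R1 (1.38 and 1.301) and PIK3CA (1.10 and 1.35), which encode subunits of PI3K, beside 13.2% and 7.97% of all tested genes higher. Leaving out each library gave PIK3R1 in HCT-8/FU from 1.10 to 2.05, the latter without HCT-8 replicate 2. With the correction for GC content and length it was at 0.90.

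The GC content of GAB1, SOS1 and PIK3CA is between 34.9% and 38.4%, and the correlation of library levels with GC content was given above for the same groups. With the correction for GC content and length, 1 of the 16 adaptor and cascade genes was higher and 1 lower in HCT-8/FU and 0 were called in the CM groups, and PIK3R1 was the 1 gene of the PI3K and PLC branch called in each. Over all tested genes the correction brought the share called from 21.3% to 15.3% and from 9.25% to 4.8%. It removes any change that runs with GC content or length, whatever its origin, and which part is technical was not tested.

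Of 10 inhibitors of the receptors and ubiquitin ligases, 2 were lower and 2 higher in HCT-8/FU, beside 8.12% and 13.2% of all tested genes. ERRFI1, which encodes an inhibitor of the EGFR kinase, was at 593 and 568 CPM in HCT-8, 221 and 219.6 in HCT-8/FU cells, 237 in both libraries with CM of HCT-8, and 235 and 231 with CM of HCT-8/FU. It fell by 1.40 in HCT-8/FU (SE 0.07, adjusted p = 2.87e-09 in the edgeR quasi-likelihood test, Benjamini-Hochberg adjusted) and by 1.29 with CM of HCT-8 (SE 0.07, adjusted p = 7.92e-08 in that edgeR test). HCT-8 stood alone at the top, and both calls held under the GC correction, at -1.61 and -1.25.

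RNF41, a ubiquitin ligase of ERBB3, fell by 1.02 in HCT-8/FU. SOCS4, which promotes loss of EGFR, rose by 1.16 in HCT-8/FU, and by 1.19 with CM of HCT-8/FU relative to CM of HCT-8, where SOCS5 rose by 0.70. With the GC correction SOCS4 was at 0.46 and 0.51 and SOCS5 at 0.34, short of the fold threshold. ERRFI1 and SOCS4 (-0.67) were the 2 of the 10 that fell in CM of HCT-8 relative to HCT-8, beside 4.29% of all tested genes called lower. SOCS4 was there at -0.35 with the GC correction and at -0.45 without CM of HCT-8 replicate 2.

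**Figure D4:**
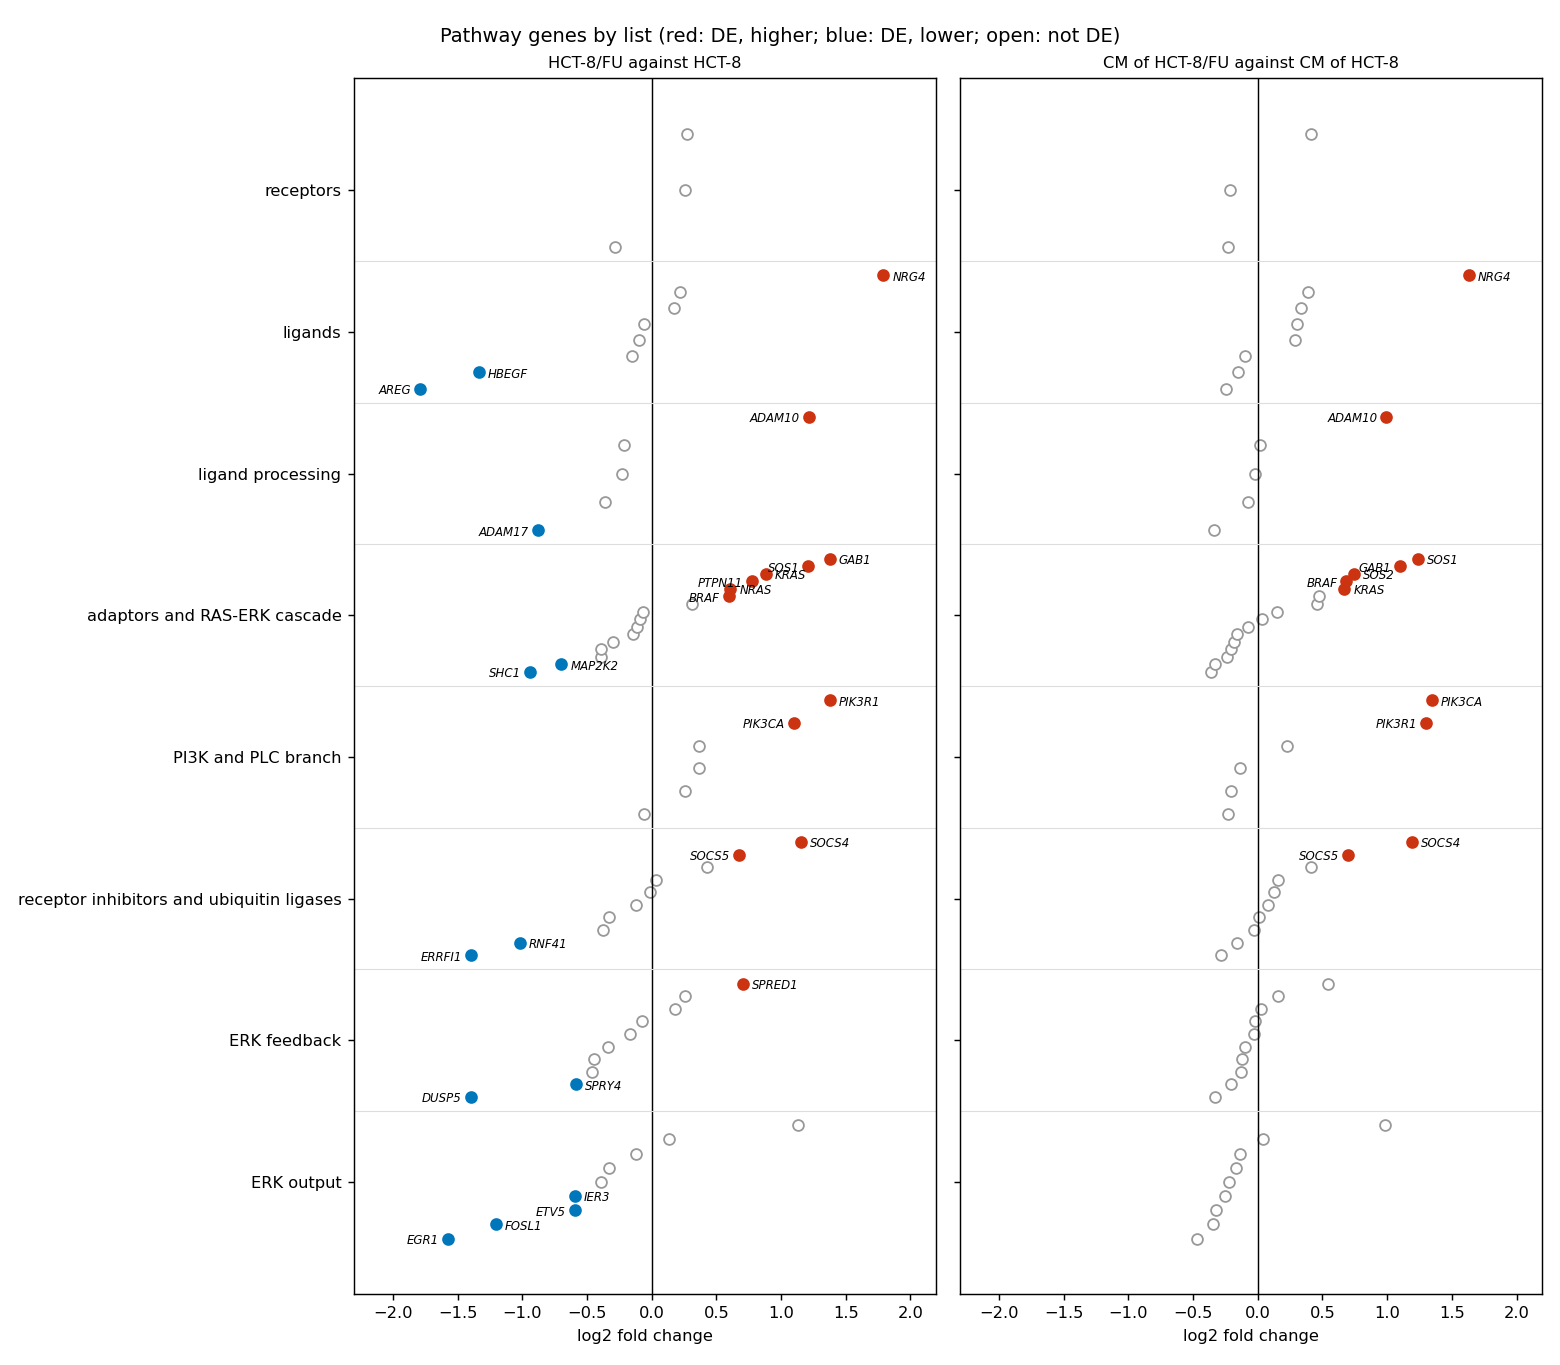
log2 fold changes (horizontal axes) of the tested genes of 8 lists of EGFR pathway genes in HCT-8/FU relative to HCT-8 (left) and CM of HCT-8/FU relative to CM of HCT-8 (right), with DE genes filled and named. Genes of ERK feedback and ERK output were DE in the left panel, led by EGR1 at -1.57 and DUSP5 at -1.40, and none of these lists was DE in the right panel.

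Of 10 ERK feedback genes, 2 were lower and 1 was higher in HCT-8/FU, beside 8.12% and 13.2% of all tested genes, with a list median of -0.25. DUSP5, a nuclear phosphatase of ERK, was at 162 and 167 CPM in HCT-8, 64.6 and 59.2 in HCT-8/FU cells, 113 and 107 with CM of HCT-8, and 108 and 107 with CM of HCT-8/FU, and fell by 1.40 in HCT-8/FU, and by 0.59 with CM of HCT-8, or -0.55 without CM of HCT-8 replicate 2. SPRY4 was the other that fell, and SPRED1 rose by 0.71 but was at 0.04 with the GC correction.

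Of 9 genes that ERK signaling is known to induce, 4 fell and 0 rose in HCT-8/FU, beside 8.12% and 13.2% of all tested genes, with a list median of -0.39 beside 0.01 over all of them. EGR1, an immediate early gene, was at 55.7 and 59.1 CPM in HCT-8, 17.6 and 22.7 in HCT-8/FU cells, 37.9 and 31.4 with CM of HCT-8, and 29.4 and 29.1 with CM of HCT-8/FU. It fell by 1.57 in HCT-8/FU, and by 0.75 with CM of HCT-8, and HCT-8 was highest without overlap. FOSL1, an AP-1 subunit, fell by 1.205 and the ETS factor ETV5 by 0.60 in HCT-8/FU, and ETV5 was short of the fold threshold under 5 of the alternatives, among them without HCT-8/FU replicate 1 (-0.55).

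In CM of HCT-8/FU relative to CM of HCT-8, 0 of the 10 feedback and 0 of the 9 output genes were DE in the edgeR quasi-likelihood test, with 3 and 5 at an unadjusted p below 0.05, and DESeq2, which put SPRED1 past the fold threshold (0.54 in edgeR), called 1 feedback gene and 0 output genes. DUSP5 in CM of HCT-8 relative to HCT-8 was the 1 feedback gene and EGR1 the 1 output gene called. Both were lower, beside 4.29% of all tested genes called lower in that comparison. The difference between the first comparisons was -1.37 for ERRFI1, -1.37 for DUSP5 and -1.35 for EGR1, each past both thresholds in edgeR's test, and for these, as for AREG and HBEGF, HCT-8 was the highest of the 4 groups.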

How the data were processed

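RNA-seq counts per gene of 8 libraries were analysed. Per the labels and the methods of the study, the authors used HISAT2 for alignment on GRCh38 and HTSeq 0.11.2 for counting on Ensembl genes, and the deposited values are raw counts, without normalization. Lines that name no gene, between 59.2% and 70.3% of the records of a library, stayed out of library sizes and tests. The authors' DESeq2 tables hold fold changes and p-values of their own comparisons and were not used, and 0 columns of sample values were left out.

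Group means were fitted to all 8 libraries in edgeR 4.0.16 (R 4.3.3) after filterByExpr and TMM normalization, with no replicate block. The quasi-likelihood test of edgeR gave p-values, which were Benjamini-Hochberg adjusted over 20305 genes. The thresholds for a call were an FDR of 0.05 and a log2 fold change of 0.58 in size. Symbols, lengths and GC contents came from GENCODE 44 on the same build, in which 56105 of 64253 identifiers were found.

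All 10 genes are named, and of each pathway list up to 3 called genes per comparison with the largest change, besides the remaining receptor and ligands. The members and lists were chosen with earlier results of these data known. A few list genes are not reported here and were left out of the counts of their lists. Replicates differed by more than sampling noise, with a median chi-square per gene of 1.04 to 1.86 against 0.455 for noise. On simulated data for HCT-8/FU relative to HCT-8, edgeR recovered 74% of 100 genes changed by 1 on the log2 scale and 94% of 100 changed by 2, with 16 false calls among 19790 genes. DESeq2 recovered 67% and 93% of them, with 3 false calls. The simulated libraries held no GC trend and no other group difference, and genes with low counts were not changed. These rates may therefore not carry over to the real libraries. Alternatives were DESeq2 1.42.0, DESeq2's size factors, another TMM reference library (CM of HCT-8 replicate 2), other filters, the groups compared only, a replicate block, a correction for GC content and length by splines with 5 degrees of freedom, a term for those libraries where over 15% of records did not align, no fold threshold, and leaving out each library. Leaving out those 3 libraries was added after seeing the data. It left replicates only in CM of HCT-8/FU, the group with the lowest median chi-square, 1.04. Calls under that setting therefore rest on the spread of that pair.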

Additional observations from a re-analysis of the deposited data

Results flagged for a closer look

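For 6 of the 10 genes the change in HCT-8/FU relative to HCT-8 differed from that in CM of HCT-8/FU relative to CM of HCT-8 by a test of the difference itself, an interaction contrast in the edgeR quasi-likelihood test, Benjamini-Hochberg adjusted, where 11.6% of all tested genes passed the FDR. AREG (-1.69, SE 0.125, adjusted p = 1.14e-06), HBEGF (-1.18, SE 0.231, adjusted p = 0.00360) and EGFR (-0.695, SE 0.0951, adjusted p = 0.000229) also passed the fold threshold in this edgeR test. ERBB2 (0.484, SE 0.105, adjusted p = 0.00731), ERBB3 (0.493, SE 0.116, adjusted p = 0.0114) and SPRY4 (-0.449, SE 0.112, adjusted p = 0.0165) passed the FDR alone in the edgeR test. Each of these 3 missed the FDR with some single libraries left out, where its largest adjusted p in the edgeR test was 0.0711 for ERBB2 (without CM of HCT-8/FU replicate 1), 0.127 for ERBB3 (without HCT-8 replicate 2) and 0.0890 for SPRY4 (without CM of HCT-8/FU replicate 2). With the GC correction, the difference of SPRY4 was at -0.41 and also missed the FDR (adjusted p = 0.0522 in the edgeR test). ERBB2 and ERBB3 had positive changes in HCT-8/FU and negative ones in CM of HCT-8/FU, each relative to its own control group, and that of ERBB3 in CM did not pass the FDR. CM of HCT-8, the control group of the second comparison, was itself DE against HCT-8 for AREG, HBEGF, EGFR and ERBB2.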

How the results depend on the processing

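Under 21 alternative settings, 970 of 1030 values of the 10 genes kept their direction and their side of the thresholds, and 0 of the 13 calls reversed. The numbers of the 10 genes called were 3 in HCT-8/FU and 0 for the CM groups relative to each other, 4 and 2 for CM of HCT-8 and then that of HCT-8/FU relative to unconditioned HCT-8, and 3 for the difference. They became 6, 4, 6, 5 and 6 without the fold threshold, by its construction. Leaving out each library gave ranges of 2 to 3, 0 to 0, 3 to 4, 2 to 2 and 3 to 3. Without the 3 libraries with many unaligned records, BTC was at 0.59 in HCT-8/FU relative to HCT-8, and EREG at -0.65 in the difference. Both lay past the fold threshold. Only CM of HCT-8/FU kept its replicates in that fit, so no calls are given from it here. With a replicate block the numbers were again 3, 0, 4, 2 and 3, and same-numbered libraries correlated between -0.123 and 0.132 in their deviations. The libraries with many unaligned records differ in replicate number between groups. The correlations therefore cannot tell whether same-numbered libraries were handled together. The call of SPRY4 in HCT-8/FU rested on the threshold, at -0.57 with DESeq2's size factors and -0.49 with CM of HCT-8 replicate 2 as reference. ERBB2 in CM of HCT-8 was at 0.58 in DESeq2 with 4 groups, just short of the threshold. The GC correction brought ERBB2 past it in the difference (0.62).

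These values turned their direction, none of them a called value among the 10 genes, and the cause was not tested. In HCT-8/FU they were DUSP6 with the other TMM reference (0.016), EREG (0.032) and BTC (-0.16) without HCT-8 replicate 2, and BTC with the GC correction (-0.37, with replicate block -0.40) and without HCT-8/FU replicate 1 (-0.35). Leaving out each library gave EREG from -0.21 to 0.032 and BTC from -0.35 to 0.38. Between the CM groups they were EREG (-0.26, with block -0.25) and BTC (-0.0425 and -0.049) with the GC correction, AREG without the first replicate of CM of HCT-8 (0.0010, range from -0.20) and HBEGF without its second (0.17). BTC in CM of HCT-8 relative to unconditioned HCT-8 was at 0.091 with the GC correction and 0.090 with the block, 0.29 without the 3 libraries, and between -0.44 and 0.14 with each library left out, and in the difference at 0.34 without the 3. EREG in CM of HCT-8/FU relative to unconditioned HCT-8 was at 0.074 with the other reference, 0.0037 without the filter, 0.0044 with a mean count of at least 10, 0.0024 with the replicate block, and between -0.10 and 0.15 with each library left out. Depth limits BTC most, at 23 counts in the shallowest library.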
